A study of Mus musculus with 16 samples.

Results

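A set of 10 genes widely used as readouts of Wnt/beta-catenin signalling was followed across mouse embryonic stem cells (mESCs) in serum and in 2i, a medium that holds an inhibitor of the kinase GSK3. They were Axin2, Nkd1, Sp5, Lef1, Tcf7, Cdx1, Cdx2, T, Sfrp1 and Dkk1. Members were found by the RefSeq accession that the array design gives each probe, which yielded 14 probes for the 10 genes, out of 55681 non-control probes and 21150 named genes. The main probe of a gene was the one with the highest mean value over all arrays, and the main probes of all 10 genes passed the filter on dim probes.

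In Wnt/beta-catenin signalling, a destruction complex built on AXIN and APC holds beta-catenin while GSK3 phosphorylates it and marks it for degradation. When a Wnt ligand binds Frizzled and LRP receptors, or when GSK3 is blocked by a drug, beta-catenin accumulates, enters the nucleus and binds the TCF/LEF factors at their target genes. In mESCs this branch is known for relieving repression by TCF7L1 at pluripotency genes, while in the embryo it drives primitive streak and posterior fates. Several of its targets encode inhibitors of the pathway, which gives negative feedback.

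Total RNA from 16 samples was measured on 1-colour (Cy3) Agilent 8x60K arrays, 1 array per sample. J1 is a wild-type male line of the 129S4/SvJae strain, TKO mESCs lack Dnmt1, Dnmt3a and Dnmt3b, and 3B3l mESCs (3B3-3l in the labels) are Dnmt3a and Dnmt3b knockouts that carry exogenous, constitutively expressed Dnmt3b and Dnmt3l. The groups were J1-serum with 4 arrays, J1-2i with 3, TKO-serum with 2, TKO-2i with 3, 3B3l-serum with 2 and 3B3l-2i with 2. Serum cultures received LIF at 500 U/ml, whereas 2i cultures were kept for 2 weeks in serum-free N2B27 with LIF at 1000 U/ml, 1 uM PD0325901 (a MEK inhibitor) and 3 uM CHIR99021 (the GSK3 inhibitor). For J1, the serum cultures had a layer of SNLP feeder cells, inactivated with Mitomycin C, while all other cultures were feeder-free on gelatin. No array used here had CHIR99021 alone, so GSK3 inhibition, MEK inhibition, loss of serum, the LIF dose and, in J1, loss of feeder cells cannot be told apart. Nothing in the labels says that replicates came from separate cultures, so p-values measure only the spread between these arrays, which may be technical.

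The 75th percentile of the signal was between 1019 and 1797 over the 16 arrays, and 39.7% to 49.0% of spots were well above background. Arrays of 1 group correlated at 0.968 to 0.990 over the probes. The arrays came from 3 slides. The 7 J1 and 5 TKO arrays lay on slides 1 and 2 except for J1-serum replicate 1, which shared slide 3 with all 4 3B3l arrays. Therefore, 3B3l and J1 in 2i shared no slide, and line and slide cannot be told apart there. All 10 mESC markers (among them Pou5f1, Nanog and Sox2) were well above background on every array.

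To show which of these genes carry the letters that TCF/LEF factors recognise close to their start, RefSeq sequence (GRCm38.p6) of the 250 bases before each annotated start was searched on both strands for CTTTG followed by AA, AT, TA or TT. There were 12 windows for 8 of the genes, and Cdx1 and Sfrp1 were not included. At least 1 match was found in 4 of the 12 windows, those of Sp5, Dkk1 and T and 1 of Lef1, against 14.8% of all 32851 windows. Sp5 and Dkk1 each held 2 matches, a number reached by 1.43% of all windows. Windows of 4 genes are shown with matches in capitals, because, among the genes with a window, Axin2 and Sp5 were the ones that rose in all 3 lines, and the responses of T and Dkk1 differed between lines. The responses of Cdx2 and Nkd1 differed as well, and their windows, which held no match, are not shown.
Axin2, chr11:108920099-108920348, plus strand: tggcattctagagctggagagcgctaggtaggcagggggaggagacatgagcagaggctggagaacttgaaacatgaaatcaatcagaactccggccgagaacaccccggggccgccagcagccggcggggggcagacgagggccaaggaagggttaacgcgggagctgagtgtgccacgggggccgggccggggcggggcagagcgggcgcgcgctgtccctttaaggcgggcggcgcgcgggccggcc
Sp5, chr2:70474673-70474922, plus strand: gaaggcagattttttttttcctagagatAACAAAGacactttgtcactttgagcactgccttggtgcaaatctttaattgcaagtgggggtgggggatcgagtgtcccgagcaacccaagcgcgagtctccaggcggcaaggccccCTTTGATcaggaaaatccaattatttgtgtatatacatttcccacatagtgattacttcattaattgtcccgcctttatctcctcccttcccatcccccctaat
T, chr17:8434173-8434422, plus strand: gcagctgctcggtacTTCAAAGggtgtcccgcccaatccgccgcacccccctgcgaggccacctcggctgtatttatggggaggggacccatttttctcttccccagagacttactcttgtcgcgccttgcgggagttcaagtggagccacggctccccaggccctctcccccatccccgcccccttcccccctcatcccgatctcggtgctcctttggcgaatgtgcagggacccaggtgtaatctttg
Dkk1, chr19:30549497-30549746, minus strand: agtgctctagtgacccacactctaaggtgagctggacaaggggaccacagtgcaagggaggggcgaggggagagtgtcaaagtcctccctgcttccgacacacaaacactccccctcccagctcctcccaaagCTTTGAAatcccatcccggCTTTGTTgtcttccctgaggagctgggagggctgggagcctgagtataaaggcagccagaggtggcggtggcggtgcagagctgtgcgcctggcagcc
In Sp5 the matches began 222 and 104 bases before the start, in T 235 bases before it, and in Dkk1 117 and 98 bases before it. The Axin2 window held none, which says only that these letters are not in this window. In Lef1, 1 of 4 windows held a match, 147 bases before that start, and the windows of Cdx2, Nkd1 and Tcf7 held none. These matches are descriptions of sequence and not sites of binding.

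All values below are log2 of the processed signal, less the log2 of the array's own 75th percentile, so a level of 0 is at that percentile and a difference of 1 is a change of 2-fold. A gene was called where limma gave an adjusted p of at most 0.05 over all 27126 probes tested and a difference of at least 2-fold. Where a group was not well above background on any of its arrays, the fold is given as a lower bound ("at least") if the brighter group was well above it on every array, and otherwise only the fitted log2 difference is given. To pass the filter on dim probes, some group had to have all of its arrays well above background, which Axin2 met only through groups in 2i, T only through 3B3l-2i and Lef1 only through TKO-serum. In bulk RNA, fewer cells expressing a gene and less RNA per cell cannot be told apart.

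In 2i, 8 of the 10 genes were called in J1, against a background of 22.6% of all 13887 genes tested, and 4 of them rose (10.0% of all genes rose) and 4 fell (12.6% fell). In TKO 8 were called (background 15.7%), of which 6 rose (6.70%) and 2 fell (9.02%). In 3B3l 6 were called (13.5%), of which 6 rose (5.60%) and 0 fell (7.92%). The 6 include Nkd1, whose probes disagreed in 3B3l, and with the mean over the probes of a gene 5 rose and 1 fell, as Nkd1 was no longer called and Lef1 was. The median difference over the 10 genes was -0.41 in J1, 2.47 in TKO and 1.19 in 3B3l, against 0.05, 0.07 and 0.00 over all genes. Axin2, Sp5, Cdx1 and Sfrp1 rose in all 3 lines, that is 4 of 10 genes against 2.04% of all genes. Axin2 passed the filter on dim probes only through groups in 2i, T only through 3B3l-2i and Lef1 only through TKO-serum, which favoured those calls. The members were also chosen with earlier results of these data known, so these shares are descriptions and no test of the set. No member fell in all 3 lines. Hence the name "targets under GSK3 inhibition" described a shared rise for 4 genes, while the other 6 differed between lines or did not pass the test in each of them.

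**Figure D1:**
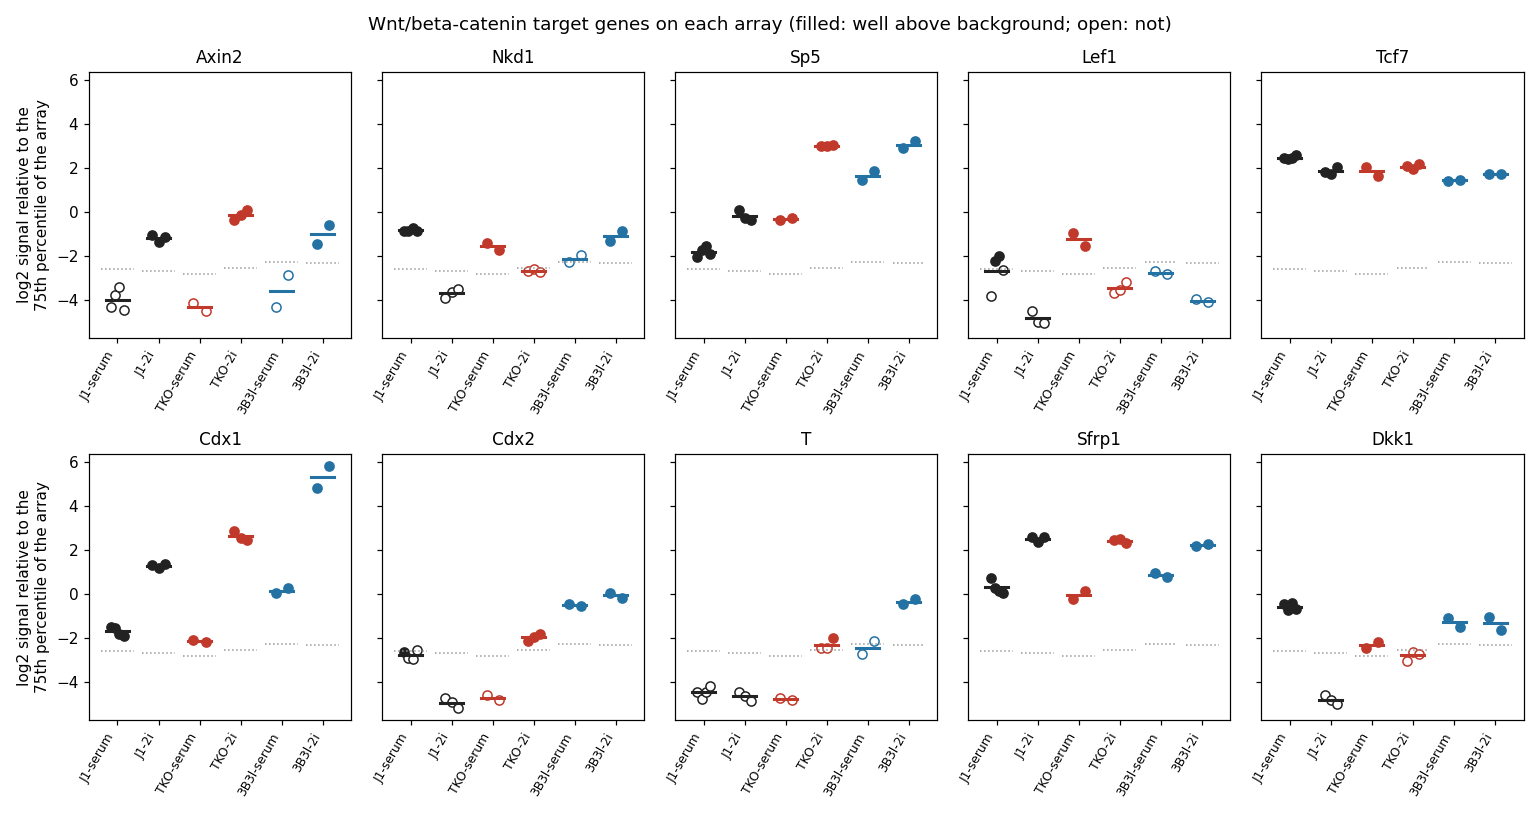
Level of each of the 10 genes on each of the 16 arrays (main probe; y axis, log2 signal with the array's 75th percentile at 0; x axis, group). Filled points were well above background and open points were not, solid lines are group means and dotted lines the dimmest signal called well above background, as a mean over the arrays of the group; Axin2 was below background on all 8 serum arrays and above it on all 8 arrays in 2i.

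Axin2 encodes a scaffold of the destruction complex and is a negative feedback target of the pathway. In serum it read -4.33, -3.79, -3.42 and -4.46 in J1, -4.13 and -4.51 in TKO, and -4.31 and -2.88 in 3B3l, and none of these 8 arrays was well above background. In 2i it read -1.04, -1.37 and -1.16 in J1, -0.35, -0.12 and 0.07 in TKO, and -1.46 and -0.58 in 3B3l, all well above background. Every 2i array was higher than every serum array. Axin2 was at least 2.61-fold higher in 2i in J1 (adjusted p = 1.67e-05), at least 6.34-fold in TKO (adjusted p = 4.53e-06) and at least 2.35-fold in 3B3l (adjusted p = 0.000814). The 3B3l difference rested on unlike serum arrays, since leaving out 3B3l-serum replicate 1 turned the fitted value of 2.57 into 1.86, and leaving out replicate 2 turned it into 3.28. In 2i the 3 TKO arrays were the highest, but the difference from J1 of 1.06 (95% interval 0.27 to 1.84) missed the threshold (adjusted p = 0.0525). It was called by limma with the replicate number as a block (adjusted p = 0.0453) and by an unpaired t-test per probe. A second Axin2 probe was not well above background on any array, and its group means ran from -4.99 in TKO-serum to -4.06 in 3B3l-2i.

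Sp5, a zinc finger factor of the Sp family whose upstream window held 2 of the matches above, was well above background on all 16 arrays. It read -2.06, -1.75, -1.54 and -1.91 in J1-serum and 0.11, -0.30 and -0.35 in J1-2i. In TKO it read -0.37 and -0.26 in serum and 2.99, 3.01 and 3.06 in 2i, and in 3B3l 1.44 and 1.84 in serum and 2.88 and 3.21 in 2i. Serum and 2i did not overlap in any line. The rise was 1.64 ± 0.15 (SE) in J1, 3.33 ± 0.18 in TKO and 1.41 ± 0.20 in 3B3l. The adjusted p-values were 1.74e-06, 3.52e-08 and 0.000187. The level was lowest in J1-serum, followed by TKO-serum and J1-2i, which overlapped, then 3B3l-serum, and then TKO-2i and 3B3l-2i, which also overlapped.

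Cdx1, a caudal-type homeobox factor of posterior patterning, rose in each line and was well above background on all 16 arrays. J1 moved from -1.49, -1.52, -1.82 and -1.88 in serum to 1.34, 1.19 and 1.36 in 2i. TKO moved from -2.11 and -2.19 to 2.85, 2.57 and 2.44, and 3B3l from 0.05 and 0.26 to 4.83 and 5.82. The 6 groups did not overlap with each other, and 3B3l-2i stood highest. The differences were 2.97 ± 0.20 (SE) in J1, 4.77 ± 0.23 in TKO and 5.17 ± 0.26 in 3B3l. The adjusted p-values were 6.62e-08, 1.37e-08 and 1.97e-08.

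Sfrp1 encodes a secreted protein that binds Wnt ligands. It read 0.76, 0.27, 0.14 and 0.05 in J1-serum, -0.21 and 0.16 in TKO-serum, and 0.98 and 0.78 in 3B3l-serum. In 2i it reached 2.59, 2.36 and 2.59 in J1, 2.45, 2.51 and 2.35 in TKO, and 2.19 and 2.28 in 3B3l. Levels in 2i lay in a narrow range over the 3 lines, and J1-2i and TKO-2i overlapped. The rise was 2.20 ± 0.16 (SE) in J1, 2.46 ± 0.19 in TKO and 1.36 ± 0.21 in 3B3l. The adjusted p-values were 1.33e-07, 5.43e-07 and 0.000304.

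Cdx2, a caudal-type factor that also marks trophectoderm, moved in opposite directions in J1 and TKO. In J1-serum it read -2.63, -2.88, -2.94 and -2.54, of which only replicate 1 was well above background, and in J1-2i -4.70, -4.90 and -5.18, none of which was. Cdx2 fell in J1 (fitted difference -2.18, adjusted p = 6.45e-08), but the signal allows no bound on the fold. In TKO it went from -4.59 and -4.82, below background, to -2.15, -1.95 and -1.79, which was at least 1.79-fold higher (adjusted p = 9.98e-08). In 3B3l it was well above background in both media, at -0.44 and -0.56 in serum and 0.06 and -0.17 in 2i, a difference of 0.44 (95% interval 0.03 to 0.85, adjusted p = 0.115) that did not pass the test. For comparison, the summed signal of the trophoblast markers in 3B3l was 95.7 to 105 times the 75th percentile in serum and 10.0 to 10.7 times in 2i. Of the 10 trophoblast markers, 9 were well above background on both 3B3l-serum arrays and 4 on both 3B3l-2i arrays, with Gata3 above it in serum only and Elf5 in neither. In J1 the sum was 22.9 to 28.9 in serum and 13.7 to 14.3 in 2i, and in TKO 17.3 to 18.0 and 13.0 to 13.6, and the part of such cells in the Cdx2 values was not tested.

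T (Brachyury), the T-box factor of the primitive streak, was not well above background on any serum array or on any J1 array. It read -4.43, -4.76, -4.44 and -4.16 in J1-serum and -4.44, -4.65 and -4.85 in J1-2i, which overlapped. In TKO it went from -4.73 and -4.81 to -2.44, -2.45 and -1.98, of which only replicate 3 was well above background (fitted difference 2.48, adjusted p = 1.9e-06). In 3B3l it went from -2.74 and -2.13 to -0.45 and -0.23, both well above background (at least 3.52-fold higher, adjusted p = 2.8e-05). Of 10 other streak markers, 2 were well above background on both 3B3l-2i arrays, 2 on all TKO-2i arrays and 3 on all J1-2i arrays, and Mixl1 and Evx1 were above it on no array. Of the 7 tested, 2 rose in each line, while J1 had 2 that fell and the other lines 1 each. Those that rose were Eomes, by 2.22, 1.12 and 1.81 in the order J1, TKO, 3B3l, and Gsc, with fitted values of 3.30, 2.98 and 1.85 against serum groups below background and, in 3B3l, a 2i group below it too. Those that fell, all to below background in 2i, were Foxa2 (fitted -4.43) and Mesp2 (-1.83) in J1, Mesp2 in TKO (-1.47) and Wnt3 in 3B3l (-2.44). These 5 genes were named after their values were seen. The summed signal of the list was 2.22 to 2.26 in J1-serum and 2.46 to 2.77 in J1-2i, 1.32 to 1.77 and 1.66 to 2.05 in TKO, and 1.75 to 2.05 and 3.09 to 3.11 in 3B3l. The part of such cells in the T values was not tested.

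**Figure D2:**
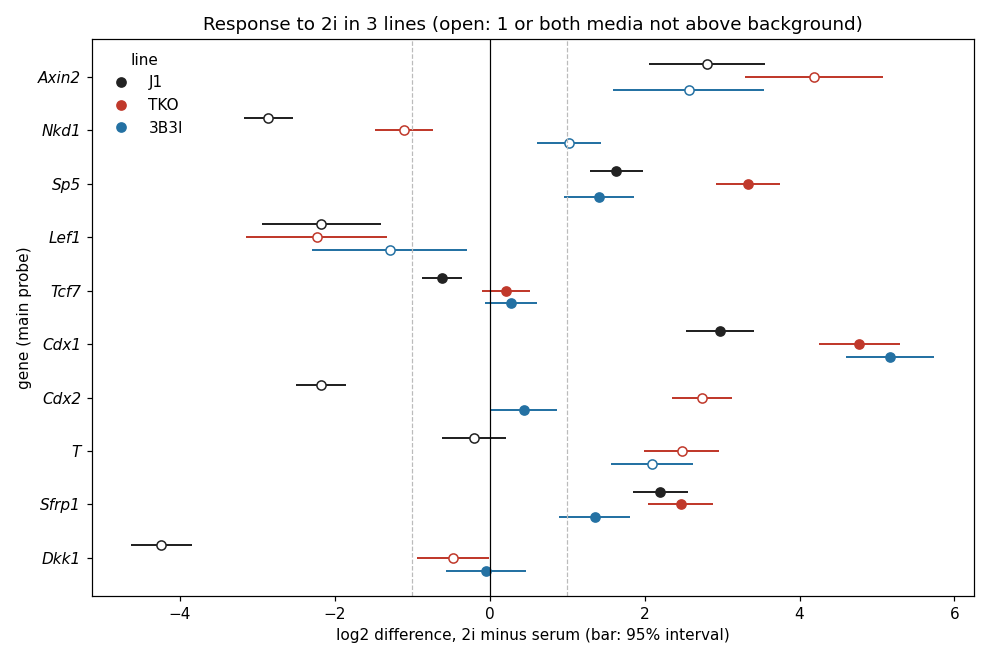
Difference between 2i and serum (x axis, log2) for the 10 genes in J1, TKO and 3B3l, with 95% intervals as bars; open points mark a response in which at least 1 of the media was not well above background on any array. Axin2, Sp5, Cdx1 and Sfrp1 lay beyond the dashed 2-fold line in all 3 lines, while Dkk1 lay at -4.24 in J1, -0.47 in TKO and -0.05 in 3B3l.

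Lef1 and Tcf7 encode TCF/LEF factors that bind beta-catenin, and neither was called higher in 2i in any line. Lef1 read -3.82, -2.22, -2.01 and -2.62 in J1-serum, where replicates 2 and 3 were well above background, and -4.48, -4.98 and -5.05 in J1-2i, where none was. It went from -0.95 and -1.53 to -3.69, -3.53 and -3.21 in TKO, and from -2.68 and -2.84 to -3.98 and -4.11 in 3B3l, where all 4 arrays were below background. Lef1 fell by a fitted 2.17 in J1 (adjusted p = 0.000189), with no fold given since 2 of 4 J1-serum arrays were above background, and was at least 2.46-fold lower in TKO (adjusted p = 0.00105), and the 3B3l difference of -1.29 missed the threshold (adjusted p = 0.0572). It was called with slide as a block (adjusted p = 0.00424), on slide 3 alone (0.0106), with normexp background correction (0.0156), with quantile normalization (0.0447) and with the mean over both probes (0.0255), while both 3B3l groups were below background throughout. The second Lef1 probe was well above background only in TKO-serum, at -1.76 and -2.67, and was at least 1.25-fold lower in TKO-2i (adjusted p = 0.0038). It was not called in J1 (fitted -0.65, adjusted p = 0.0732) or in 3B3l (fitted -1.02, adjusted p = 0.0593).

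Tcf7, which encodes TCF1, was well above background everywhere and moved little. It read 2.43, 2.43, 2.44 and 2.59 in J1-serum and 1.81, 1.71 and 2.03 in J1-2i, with no overlap. TKO read 2.06 and 1.65 in serum and 2.08, 1.93 and 2.18 in 2i, and 3B3l 1.41 and 1.47 in serum and 1.71 and 1.73 in 2i. The J1 difference of -0.62 (95% interval -0.87 to -0.37, adjusted p = 0.000548) was under 2-fold, and those in TKO (0.21, 95% interval -0.08 to 0.50) and 3B3l (0.28, 95% interval -0.04 to 0.60) did not pass the test. The second probe gave -0.75 in J1, 0.10 in TKO and 0.54 in 3B3l, all under 2-fold.

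Nkd1, which encodes an inhibitor that binds Dishevelled, differed between lines and between its probes. On the main probe it read -0.85, -0.85, -0.71 and -0.88 in J1-serum and -3.92, -3.63 and -3.48 in J1-2i, the latter all below background. TKO went from -1.41 and -1.73 to -2.71, -2.59 and -2.72, again below background in 2i, whereas 3B3l went from -2.26 and -1.98, below background, to -1.34 and -0.85, above it. Thus Nkd1 was at least 3.62-fold lower in 2i in J1 (adjusted p = 4.83e-09), at least 1.96-fold lower in TKO (adjusted p = 0.000229) and at least 1.98-fold higher in 3B3l (adjusted p = 0.00112). The fitted TKO difference was -0.95 and no longer 2-fold when TKO-serum replicate 1 was left out, and the 3B3l difference shrank to 0.88 when 3B3l-serum replicate 1 and to 0.78 when 3B3l-2i replicate 2 was left out. The second probe also fell in J1 (-1.49, adjusted p = 0.0162) and TKO (-1.60, adjusted p = 0.0402), but read -1.21 and -1.56 in 3B3l-serum and -2.13 and -2.50 in 3B3l-2i, the opposite order to the main probe (-0.93, 95% interval -2.23 to 0.37, adjusted p = 0.325). The direction in 3B3l is therefore uncertain, and the mean of both probes gave 0.05.

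**Figure D3:**
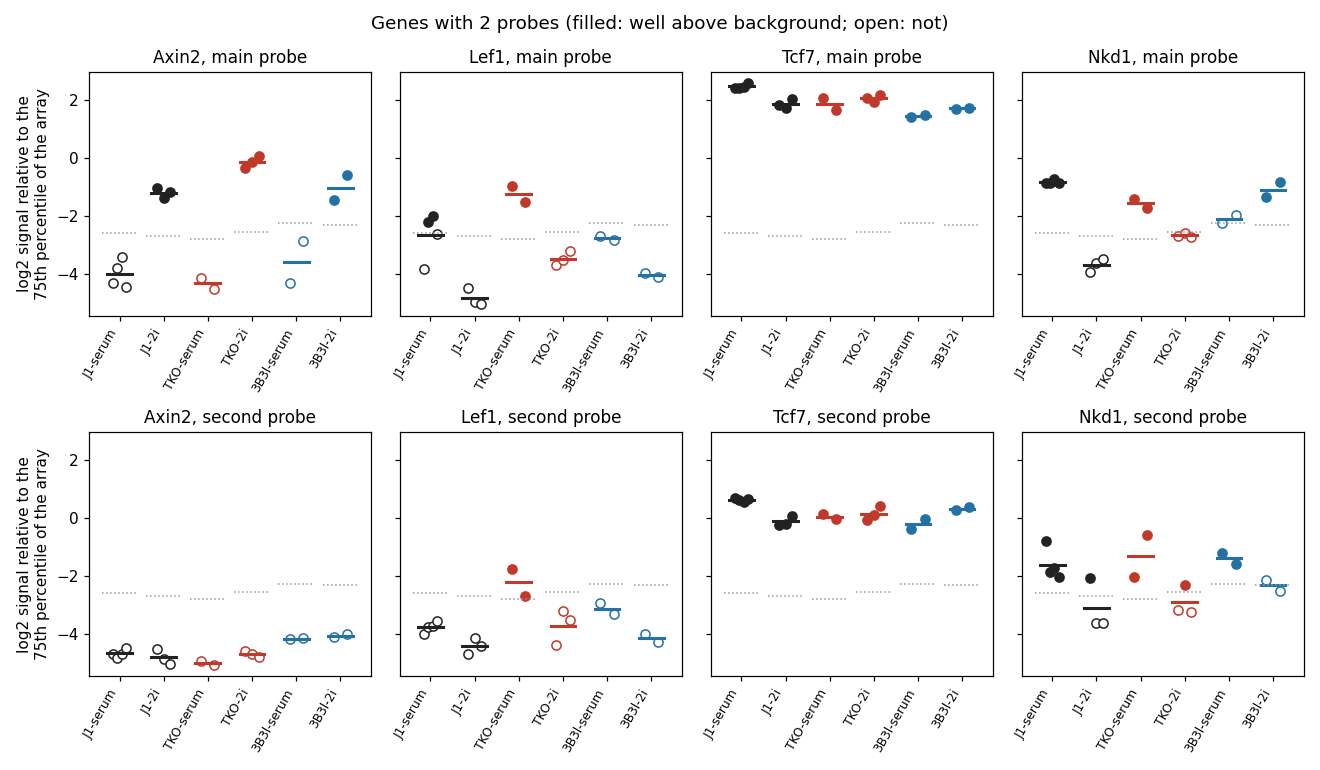
Levels on each array for the 4 genes with 2 probes, the main probe above and the second below (y axis, log2 signal with the array's 75th percentile at 0; filled, well above background; open, not; solid lines, group means; dotted lines, the dimmest signal called well above background, as a mean over the group). The Nkd1 probes fell in 2i in J1 and TKO but lay in opposite order in 3B3l, and the second Axin2 probe was open on all 16 arrays.

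Dkk1, a secreted antagonist of the LRP co-receptors with 2 matches in its upstream window, fell in J1 and did not pass the test in TKO or 3B3l. It read -0.43, -0.74, -0.39 and -0.68 in J1-serum and -4.60, -4.81 and -4.99 in J1-2i, the latter all below background, and was at least 4.34-fold lower in 2i (adjusted p = 1.02e-09). TKO read -2.44 and -2.17 in serum and -3.02, -2.61 and -2.70, below background, in 2i (fitted difference -0.47, 95% interval -0.93 to -0.02, adjusted p = 0.111). 3B3l read -1.06 and -1.49 in serum and -1.02 and -1.62 in 2i, which overlapped (-0.05, 95% interval -0.55 to 0.45, adjusted p = 0.935). Fibroblast markers moved with these falls in J1, the line with feeder cells, where 10 of 13 tested were called lower in 2i, but TKO, with 5 called lower and 1 higher, and 3B3l, with 6 lower and 0 higher, had no feeder cells. The mean level of 15 markers was 1.28 to 1.53 in J1-serum and -1.67 to -1.53 in J1-2i, and their summed signal 97.8 to 116 and 63.4 to 76.1. The mean was -0.51 to -0.37 in TKO-serum and -1.32 to -1.18 in TKO-2i, and 0.29 to 0.40 in 3B3l-serum and -1.30 to -1.26 in 3B3l-2i. The summed signal was higher in 2i in TKO, at 42.0 to 47.6 in serum and 66.2 to 68.1 in 2i. In 3B3l it was 91.3 to 100 in serum and 58.6 to 66.4 in 2i. Of the 15, 13 were well above background on every J1-serum array and 12 on every TKO-serum and every 3B3l-serum array. Dcn was well above background on all 4 J1-serum arrays, on 1 of 3 J1-2i arrays and on none of the TKO or 3B3l arrays, and Lum on no array. Col1a1, Col1a2 and Thy1 were above it on every serum array of all 3 lines. The part of feeder cells in the J1 falls of Dkk1, Nkd1, Lef1 and Cdx2 was not tested.

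Within slide 1 alone, the fitted J1 differences were 2.84 for Axin2, 1.60 for Sp5, 3.20 for Cdx1, 2.49 for Sfrp1, -2.20 for Cdx2, -2.45 for Lef1, -2.91 for Nkd1 and -4.26 for Dkk1. In TKO they were 4.29 for Axin2, 3.35 for Sp5, 4.65 for Cdx1, 2.46 for Sfrp1, 2.83 for Cdx2, 2.55 for T, -2.13 for Lef1 and -1.09 for Nkd1. All of these kept the direction of the values over all slides. Apart from those of Sp5, Cdx1 and Sfrp1 they rest on a group below background and are no measured folds. The 4 3B3l arrays shared slide 3, so their differences were already within it, and with the arrays of that slide alone Nkd1 missed the threshold (adjusted p = 0.0529).

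The lines were next compared with J1 in the same medium. Wild-type J1 cells in serum carry DNA methylation too, so 3B3l against J1 in serum is no contrast in its retention. Besides methylation in 2i, 3B3l differs from J1 by the knockout of Dnmt3a and by exogenous Dnmt3b and Dnmt3l. The values below are thus differences between lines, and the part of DNA methylation in them was not tested. TKO differed from J1 in serum in 4 genes (background 16.4% of all genes), of which 2 were higher (7.69%) and 2 lower (8.71%). In 2i it differed in 7 genes (7.30%), of which 7 were higher (3.77%) and 0 lower (3.53%). For 3B3l, 6 genes differed in serum (19.2%), 4 higher (9.80%) and 2 lower (9.40%), and 6 differed in 2i (14.3%), 6 higher (7.77%) and 0 lower (6.54%). Of the 7 TKO calls in 2i, those of Dkk1, Lef1 and Nkd1 compared groups that were both below background, as did the call of T for 3B3l in serum, and no fold is given for these. TKO and 3B3l were set against the same J1 arrays, so their differences are not independent. Only J1-serum had feeder cells, and in serum 10 of the 13 tested fibroblast markers were called lower in TKO than in the J1 arrays, and 6 were for 3B3l, while 0 were higher for either line. In 2i, with no feeder cells in any line, 3 were higher and 2 lower in TKO, and 4 higher and 1 lower in 3B3l. Hence in serum, line and feeder cells cannot be told apart. Whether TKO and 3B3l are single clones is not given in the sources used here.

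Sp5 was higher than J1 in all 4 of these comparisons, by 1.50 in serum and 3.20 in 2i in TKO and by 3.45 and 3.23 in 3B3l (adjusted p from 1.8e-08 to 2.06e-05). Within slide 1 the TKO values were 1.41 and 3.15. Within slide 3 the 3B3l serum value was 3.70, against J1-serum replicate 1, the only J1 array there. Cdx1 was 1.83 higher in 3B3l in serum and 4.03 higher in 2i (adjusted p = 2.49e-05 and 1.41e-07). In TKO it was 1.33 higher in 2i (adjusted p = 0.000625), while the serum difference of -0.47 (95% interval -0.95 to 0.01) did not pass the test. For Cdx1, the 3B3l serum difference within slide 3, against that same array, was 1.65. Cdx2 was higher than J1 in 3B3l by a fitted 2.25 in serum (adjusted p = 3.25e-07) and at least 6.16-fold in 2i (adjusted p = 2.09e-09), and in TKO it was at least 1.65-fold higher in 2i (adjusted p = 6.57e-08). In serum the fitted TKO difference was -1.96 (adjusted p = 1.26e-06), or -0.98 and under 2-fold with normexp, and no fold is given because only 1 of 4 J1-serum arrays was above background. Trophoblast markers differed beside these Cdx2 values. Of the 9 tested, 7 were called higher and 0 lower in 3B3l-serum against J1-serum, with a median of 1.87, and 0 higher and 4 lower in TKO-serum. In 2i, 0 were higher and 1 lower for each line, and the part of such cells was not tested.

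In 2i, T was at least 5.06-fold higher in 3B3l (adjusted p = 5.01e-08) and higher in TKO by a fitted 2.36 (adjusted p = 3.43e-06), the latter with 1 of 3 TKO-2i arrays above background. Dkk1 was at least 2.56-fold higher in 3B3l than in J1 in 2i (adjusted p = 1.78e-07), 1.74 lower in TKO in serum on the log2 scale (fitted difference -1.74, adjusted p = 1.8e-05) and under 2-fold different in 3B3l in serum (-0.71, adjusted p = 0.0107). Nkd1 in 3B3l was at least 2.39-fold lower in serum (adjusted p = 2.78e-05) and at least 3.01-fold higher in 2i (adjusted p = 3.37e-07), but its second probe gave 0.22 and 0.78 and passed neither test (adjusted p = 0.761 and 0.278).

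Lef1 was higher in TKO than in J1 in serum by a fitted 1.43 (adjusted p = 0.0115), with 2 of 4 J1-serum arrays above background. This call was lost without TKO-serum replicate 1, at 1.14 (adjusted p = 0.13), and the difference was under 2-fold with slide as a block (0.995) and with normexp (0.999), while the second probe was at least 1.29-fold higher (adjusted p = 0.00173). Tcf7 was lower in 3B3l in serum by a difference of -1.03 (adjusted p = 3e-05), close to the 2-fold limit, and gave -0.99 without J1-serum replicate 4. Neither Axin2 nor Sfrp1 was called between lines in either medium in the main fit. For Sfrp1 the differences were -0.33 and -0.07 for TKO and 0.57 and -0.27 for 3B3l, in serum and 2i, and the 95% intervals together spanned -0.72 to 0.96.

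**Figure D4:**
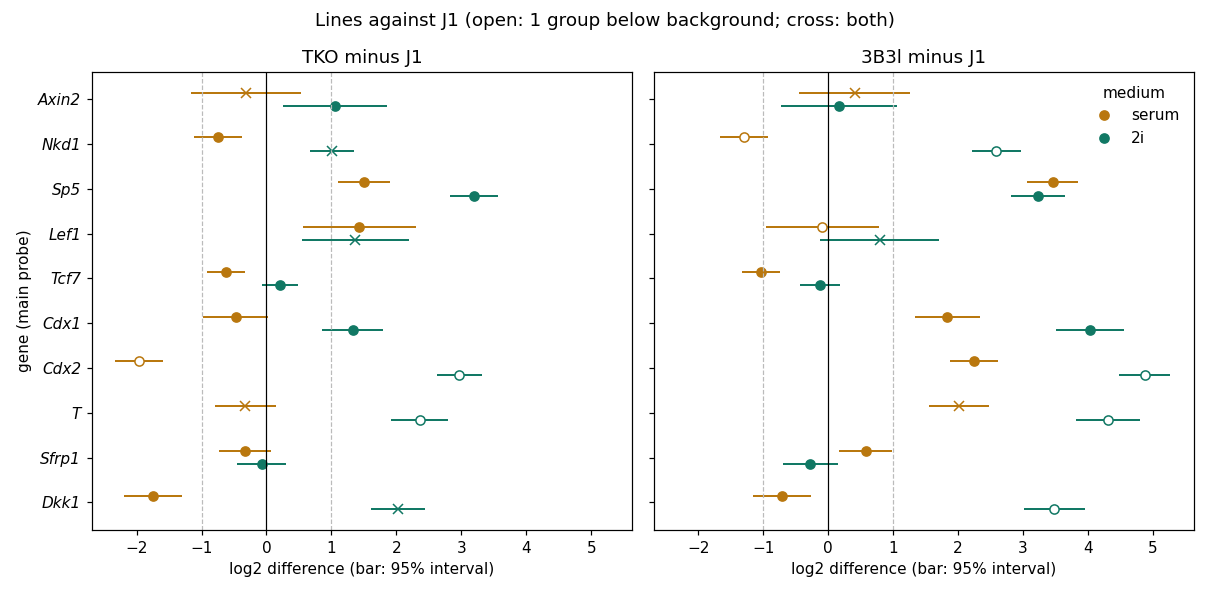
Differences of TKO (left) and 3B3l (right) from J1 in serum and in 2i (x axis, log2, with 95% intervals as bars; dashed lines, 2-fold) for the 10 genes. Open circles mark comparisons with 1 group below background on all arrays and crosses those with both below; in 2i, Sp5, Cdx1, Cdx2, T, Nkd1 and Dkk1 lay to the right of the 2-fold line in both panels.

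Whether the lines responded differently to 2i was tested as the difference between 2 responses. The TKO response minus the J1 response was called positive in 6 of 10 genes (background 7.73%) and negative in 0 (7.45%), where 15.2% of all genes were called in either direction. The 3B3l response minus the J1 response was positive in 5 (8.59%) and negative in 0 (8.53%), against 17.1% of all genes in either direction. A positive value can be a larger rise, a smaller fall, as for Dkk1 and Nkd1 in TKO, or a rise against a fall, as for Cdx2 in TKO. Both tests share the J1 arrays. Fibroblast markers also differed, with 9 of 13 called higher and 0 lower for TKO minus J1, and 8 higher and 0 lower for 3B3l minus J1, and the part of feeder cells in these differences was not tested. Of 9 trophoblast markers tested, 2 were higher and 2 lower for TKO minus J1, and 0 higher and 8 lower for 3B3l minus J1, with a median of -2.03, and their part was not tested. For Sp5 the TKO response was 1.70 larger (95% interval 1.18 to 2.22, adjusted p = 0.000214), whereas the 3B3l response differed by -0.23 (95% interval -0.78 to 0.32, adjusted p = 0.564). For Cdx1 the excess was 1.80 in TKO (adjusted p = 0.000886) and 2.20 in 3B3l (adjusted p = 0.000278).

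For Cdx2, T, Dkk1, Nkd1, Axin2 and Lef1 at least 1 group was below background, so the fitted differences of responses are neither measured values nor bounds. They were 4.92 and 2.62 for Cdx2, 2.68 and 2.29 for T, 3.76 and 4.19 for Dkk1, and 1.75 and 3.88 for Nkd1, in TKO and 3B3l (adjusted p from 5.07e-08 to 0.000111). The second Nkd1 probe gave -0.11 and 0.57 and was not called (adjusted p = 0.931 and 0.633). Axin2 gave a fitted 1.38 in TKO (95% interval 0.23 to 2.52, adjusted p = 0.0757) and -0.24 in 3B3l (95% interval -1.45 to 0.97), neither of which passed the test. Tcf7 gave 0.83 and 0.90, under 2-fold, although its second probe was called in 3B3l at 1.28 (adjusted p = 0.000686). Sfrp1 gave 0.26 in TKO and -0.85 in 3B3l, the latter under 2-fold (adjusted p = 0.0281), and Lef1 gave a fitted -0.06 and 0.88 and was not called. The Lef1 value in 3B3l was called at 1.27 with slide as a block (adjusted p = 0.0186). Leaving out J1-serum replicate 1 gave the same 1.27 (adjusted p = 0.0148). That array is the only J1 array on slide 3, so these are not separate checks.

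Other genes of the pathway were read from lists of ligands, R-spondins and secretion factors, receptors, transduction components, nuclear partners, inhibitors and further targets. Of 19 Wnt ligands, 10 were tested, of which 0 rose and 3 fell in J1, 0 and 3 in TKO, and 2 and 5 in 3B3l. Over all genes, 10.0% rose and 12.6% fell in J1, 6.70% and 9.02% in TKO, and 5.60% and 7.92% in 3B3l. Wnt9a fell in all 3 lines (fitted -3.72, -1.16 and -1.70), and was well above background only in J1-serum. Each value thus rests on a group below background, in TKO and 3B3l on both groups, and none is a measured fold. Of 6 R-spondins and secretion factors, 3 were tested, of which 1 fell in J1, 1 in TKO and 2 in 3B3l. Rspo1, which amplifies Wnt signalling at LGR receptors, fell in each line, with fitted differences of -3.53 in J1, where 2i was below background, -2.17 in TKO and -1.15 in 3B3l.

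Of 18 receptors, 15 were tested, of which 4 rose and 2 fell in J1, 2 and 3 in TKO, and 3 and 2 in 3B3l. Over all genes, 22.6%, 15.7% and 13.5% were called in either direction in J1, TKO and 3B3l. The Frizzled receptor Fzd10 rose by 2.80, 1.96 and 2.31 and the co-receptor Ror2 by 1.64, 2.35 and 1.86 in J1, TKO and 3B3l, whereas the differences of Fzd2 were -1.58, -1.31 and -2.01. Of 13 transduction components tested, 1 rose in J1 (Amer1, 1.36) and none in TKO or 3B3l, and none fell. The medians of their list were -0.03, 0.09 and 0.09.

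Among 10 nuclear partners tested, 2 rose and 1 fell in J1 and none was called in TKO or 3B3l. Tcf7l1, the repressor relieved by beta-catenin, gave 1.01 in J1 (adjusted p = 0.0149), 0.14 in TKO and 0.62 in 3B3l, of which only the first was called. Of 18 further inhibitors 8 were tested, of which 0 rose and 1 fell in J1, 1 and 3 in TKO, and 1 and 1 in 3B3l. For both lists, the share of all genes called in either direction was 22.6% in J1, 15.7% in TKO and 13.5% in 3B3l. Sfrp2, a secreted relative of Sfrp1, fell in J1 (-2.17) and TKO (fitted -3.65, with 2i below background), and gave -0.70 in 3B3l, under 2-fold.

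Of 12 further targets 8 were tested, of which 1 rose and 4 fell in J1, 2 and 3 in TKO, and 0 and 4 in 3B3l. The shares of all genes that rose and fell were 10.0% and 12.6% in J1, 6.70% and 9.02% in TKO, and 5.60% and 7.92% in 3B3l. Myc and Ascl2 fell in all 3 lines, with differences of -1.74, -2.61 and -1.76 for Myc and -1.38, -1.74 and -2.42 for Ascl2, in J1, TKO and 3B3l. The median over this list was -0.93, -0.44 and -0.70, against -0.41, 2.47 and 1.19 over the 10 members.

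**Figure D5:**
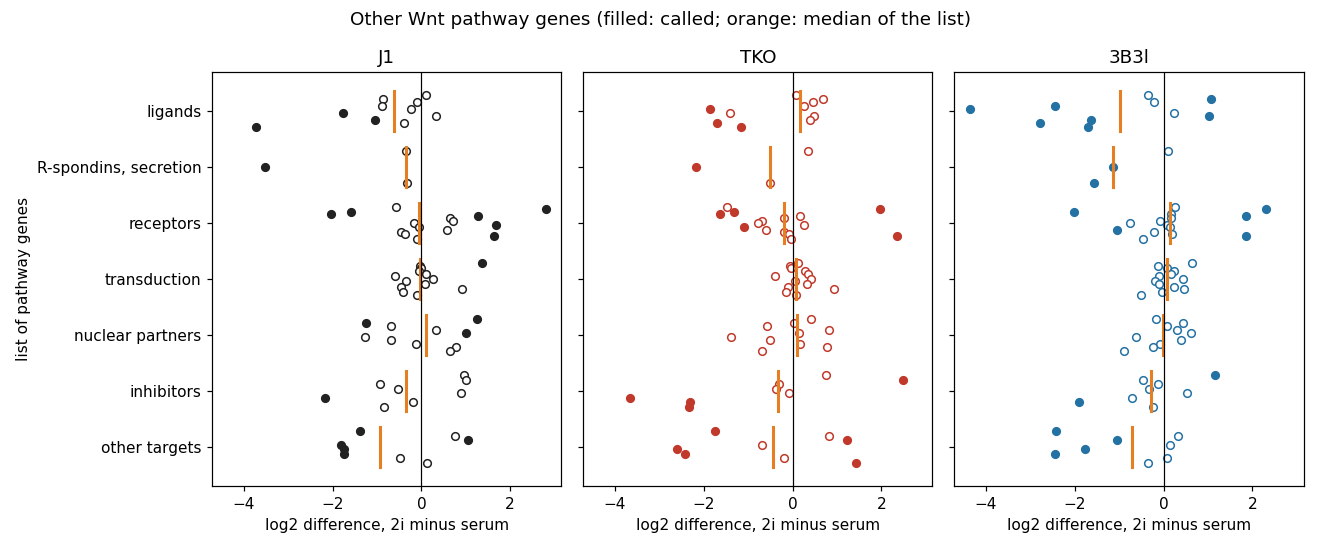
Differences between 2i and serum (x axis, log2) for the tested genes of 7 Wnt pathway lists in J1, TKO and 3B3l; filled points were called, open points were not, and orange bars are list medians. Transduction components lie around 0 in each line, while ligands and further targets reach well below it.

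The genes most like Axin2 over the 16 arrays, by Pearson correlation of levels among 13598 genes compared, were Gcat (0.968), Srarp (0.967), Tfcp2l1 (0.965), Dlg5 (0.964) and Slc6a8 (0.964). Of the other members, Sfrp1 (0.925), Cdx1 (0.842) and Sp5 (0.720) were nearest, while T gave 0.516, Cdx2 0.140 and Tcf7 -0.196. Nkd1 (-0.577), Dkk1 (-0.581) and Lef1 (-0.672) ran the other way. The 16 points share their groups, slides and arrays, so these values are descriptions, and at the lower end they include arrays on which Axin2 was below background.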

How the data were processed

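Total RNA of the 16 samples was labelled with Cy3 and hybridised by the authors to Agilent 8x60K arrays. Per the file headers, spots were read with Agilent Feature Extraction 11.5.1.1 (version per the submitters' processing notes), and the deposited signal is an intensity after background subtraction and detrending within the array, with no normalization between arrays. Another table from the authors holds log2 values of 30170 probes after normalization between arrays, and served as an alternative only. All of its 16 columns were best matched by an array of the same group, but only 3 by the array of the same name.

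Control spots and outlier spots were left out, spots of 1 probe were averaged, and log2 signals were set relative to the 75th percentile of each array. An array measured a probe above background if a share of at least 0.5 of the probe's spots had that flag, and probes were tested if some group had this on all of its arrays. Of 27126 tested probes 9282 carry no gene name, and the rest stand for 13887 genes by their main probe. Levels were fitted over 6 groups with limma 3.58.1 (R 4.3.3), and 9 comparisons were tested with Benjamini-Hochberg adjustment. The script was tested on simulated data. The number of arrays limits the precision.

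The members and gene lists were chosen with earlier results of these data known. From a list, genes called in 1 direction in all 3 responses were named, otherwise the called gene with the largest mean change, and 1 gene that this rule names is not reported here. The alternatives were normexp, quantile and median scaling, probe filters, slide and replicate blocks, single slides, the mean over probes, the authors' table, an unpaired t-test per probe (the study's methods name limma for the arrays, and its legends an unpaired t-test) and leaving out each array.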

Additional observations from a re-analysis of the deposited data

Results flagged for a closer look

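On the main Tcf7 probe, J1-serum replicate 4 read 2.59 and stood apart from the other 3 arrays of its group. This was 1 of 14 probe groups tested. About 1 in 20 groups is expected to hold such an array by chance, and a group of 4 arrays exists only for J1-serum.

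The response to 2i differed from that of J1 in TKO by 1.80 for Cdx1, 4.92 for Cdx2, 3.76 for Dkk1, 1.75 for Nkd1, 1.70 for Sp5 and 2.68 for T (log2, test of the difference with limma). In 3B3l it differed by 2.20 for Cdx1, 2.62 for Cdx2, 4.19 for Dkk1, 3.88 for Nkd1 and 2.29 for T. For Cdx2, Dkk1, Nkd1 and T at least 1 of the groups was below background, and the Nkd1 difference did not pass the test on the second probe.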

How the results depend on the processing

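No called difference of a member changed sign under any alternative that was run. The second probe alone was not among them. On it Nkd1 had the other sign in the 3B3l response (-0.93), for 3B3l against J1 in serum (0.22) and for TKO minus J1 (-0.11). Over 56 called differences, 995 of 1038 recomputed values kept the call and 43 lost it, mostly for Lef1, Nkd1 and Tcf7. Called members per comparison stayed within 1.5 times the main count with these exceptions. With normexp, TKO against J1 in serum gave 2 in place of 4. With only probes well above background on all 16 arrays, 4 members could be tested, and called members were 3 in each of the responses of J1, TKO and 3B3l, 1 and 2 for TKO against J1 in serum and 2i, 3 and 2 for 3B3l, and 2 and 1 for the differences of the TKO and 3B3l responses from J1. The unpaired t-test per probe after Benjamini-Hochberg called 0 in the 3B3l response, against 6 unadjusted and 6 with limma. Leaving out 1 array gave 8 for the J1 response, 7 to 8 for TKO and 5 to 6 for 3B3l. For TKO against J1 it gave 3 to 4 in serum and 5 to 7 in 2i, for 3B3l against J1 5 to 7 and 6, and for the differences of responses 6 to 7 in TKO and 5 to 6 in 3B3l.

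Among calls lost elsewhere were Nkd1 in the TKO response with normexp (-0.73), Nkd1 in the 3B3l response with normexp (0.78) and with the mean over probes (0.05), Nkd1 for 3B3l against J1 in serum (-0.54) and for the difference of the TKO response (0.82) with the mean over probes, Cdx2 for TKO against J1 in serum with normexp (-0.98), and Lef1 for TKO against J1 in serum with normexp (0.999) and with slide as a block (0.995). Lef1 and Nkd1 for TKO against J1 in 2i, where both groups were below background, lost the call in several of these settings and without single arrays. Tcf7 for 3B3l against J1 in serum was under 2-fold with normexp (-0.96), slide as a block (-0.99) and the mean over probes (-0.94). The cause was not tested.

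Among 34 differences that were not called, 34 recomputed values passed the test in the same direction, some of them only with no fold change limit or by the t-test, and 26 changed sign. Besides the Lef1 responses given above, Axin2 for TKO minus J1 was called with normexp (1.11, adjusted p = 0.00979). Tcf7 for 3B3l minus J1 was called with the mean over probes (1.09, adjusted p = 0.000742). Lef1 for 3B3l against J1 in 2i was called at 2.33 with slide as a block. There both groups were below background, and the slide estimate rests on J1-serum replicate 1. With 1 serum array left in the line, Axin2 gave 1.12 for 3B3l against J1 in serum (without 3B3l-serum replicate 1). Likewise, Tcf7 gave 1.04 for TKO minus J1 (without TKO-serum replicate 1). Dkk1 in the 3B3l response gave 0.061 with normexp, 0.0234 with quantile normalization, 0.079 with median scaling, 0.0235 in the authors' table, and -0.35 to 0.25 without single arrays. Lef1 for 3B3l against J1 in serum gave 0.10 with normexp, 1.06 with slide as a block and on slide 3 alone, where it was called (adjusted p = 0.0262 and 0.0335), 0.27 with the mean over probes, and -0.47 to 0.13 without single arrays. The Lef1 difference of the TKO response gave 0.37 with slide as a block, 0.32 on slide 1 alone, and -0.35 to 0.32 without single arrays. Sfrp1 gave 0.012 for 3B3l against J1 in 2i with normexp and -0.035 for the difference of the TKO response on slide 1 alone. Tcf7 gave 0.16 for 3B3l against J1 in 2i with the mean over probes. Without single 3B3l arrays, Axin2 gave -0.31 to 1.12 for 3B3l against J1 in serum, -0.27 to 0.61 in 2i, and -0.95 to 0.48 for the difference of responses.

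Same-numbered arrays deviated together at correlations of -0.127 to 0.271 over 16 pairs. The 4 above 0.1 were all of 3B3l, at 0.269 and 0.271 for its response and 0.199 and 0.140 against J1 in serum. Whether the numbers pair the samples cannot be told from these values, and the main fits used no pairing. With the replicate number as a block, called members were 8, 8 and 6 for the responses, 4 and 8 for TKO against J1, 5 and 6 for 3B3l against J1, and 6 and 5 for the differences of responses. There, Tcf7 for 3B3l against J1 in serum gave -0.94, Axin2 for TKO against J1 in 2i was called at 1.06, and Lef1 for 3B3l against J1 in serum changed sign to 0.045. Signal near background limits Axin2, Lef1, Cdx2, T, Nkd1 and Dkk1, whose groups below it give only bounds or fitted values.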
